A study of Mus musculus with 4 samples.

Results

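Dlg2 encodes a scaffold protein of the postsynaptic density and lies on mouse chromosome 7, in a window of 2.05 Mb that is taken here as the gene. The contacts described here are every listed H3K27ac HiChIP interaction with at least 1 of its paired anchors overlapping chromosome 7 from 97600000 to 99650000 (mm9) by 1 bp. There were 59 such interactions of 8278 in the list for somatostatin (SST) interneurons and 41 of 6733 in the list for vasoactive intestinal peptide (VIP) interneurons, 100 of 15011 in all. The window was chosen on its listed contacts in these same lists, so its counts are given as a description and carry no test. SST nuclei came from mice of genotype Sst-cre; Sun1, and VIP nuclei from mice of genotype Vip-cre; Sun1, both on a C57BL/6 background, from cortex labelled adult. In both, Cre recombinase under a cell-type driver turns on tagged Sun1, a protein of the nuclear envelope, and the tagged nuclei are purified (INTACT), so each list describes the cells in which the driver was active and not a sorted single subtype. The labels give no number of animals, no age beyond adult and no pooling. They describe 2 samples per cell type, and the analysis rests on a single list for each, filed under replicate 1. The lists hold anchor coordinates and no expression, so neither the cell types nor the position of the gene in the window could be checked against other values.

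The Dlg2 protein, also known as PSD93 or chapsyn, belongs to the membrane-associated guanylate kinase family. Such proteins carry PDZ domains that hold receptors and ion channels, among them NMDA receptors and Shaker-type potassium channels, at synapses and nearby membrane. The gene is unusually long and has several alternative starts, which give proteins with different N-terminal ends. Acetylation of histone H3 at lysine 27 marks active promoters and enhancers, and HiChIP joins DNA ends that lie close together in the nucleus and keeps those that carry the precipitated mark. A listed interaction thus stands for a contact, enriched for the mark, between stretches called anchors. The lists do not tell whether both anchors of a contact carry the mark. An anchor appears in a list because of at least 1 such contact.

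The RefSeq promoter table at hand (GRCm38.p6) holds 3 starts for Dlg2, and their sequences are shown because acetylated starts are among the places that such contacts can join. Each covers the 250 bases before the start and 50 after it on the plus strand, and the capitals mark GATC, the palindromic site at which MboI cut the chromatin and at which contacts can be joined. In the order of transcription they read as follows.
Dlg2 start 1: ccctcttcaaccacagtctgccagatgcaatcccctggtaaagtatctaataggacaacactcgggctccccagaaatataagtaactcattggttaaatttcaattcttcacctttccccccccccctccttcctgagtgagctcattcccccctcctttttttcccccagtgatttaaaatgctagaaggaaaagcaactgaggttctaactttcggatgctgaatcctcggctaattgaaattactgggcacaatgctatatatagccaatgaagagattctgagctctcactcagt
Dlg2 start 2: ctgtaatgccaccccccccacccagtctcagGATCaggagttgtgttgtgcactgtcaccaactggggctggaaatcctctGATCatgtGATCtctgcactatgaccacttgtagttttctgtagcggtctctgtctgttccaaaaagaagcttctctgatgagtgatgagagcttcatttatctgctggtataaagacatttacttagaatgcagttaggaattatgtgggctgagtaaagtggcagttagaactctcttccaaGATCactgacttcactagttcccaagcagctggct
Dlg2 start 3: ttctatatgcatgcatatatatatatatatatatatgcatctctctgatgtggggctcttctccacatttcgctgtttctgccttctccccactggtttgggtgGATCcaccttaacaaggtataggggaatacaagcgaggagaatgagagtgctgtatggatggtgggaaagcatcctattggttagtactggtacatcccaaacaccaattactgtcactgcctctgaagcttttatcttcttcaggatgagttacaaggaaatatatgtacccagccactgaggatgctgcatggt
The first start held 0 GATC sites, the second held 4 and the third held 1. Of 32851 promoters of this length in the table, 48.0% held at least 1 such site and 14.5% held 2 or more. The GC content was 44.7%, 46.0% and 43.0% in this order, each under the median of 52.7% over all promoters. The coordinates of the lists are mm9, an annotation of that build was not used here, and coordinates were not converted. No anchor is therefore assigned to a start, an exon or an intron, and the sequences are no statement on which anchor holds which start. In the GRCm38 order of protein-coding genes, Tmem126b, Tmem126a and Crebzf precede Dlg2 on the lower side, and Ccdc90b, Ankrd42 and Pcf11 follow it.

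Both interneuron classes had a dense block of listed contacts at Dlg2, of about the same size relative to list length but centred on different parts of the gene window. The SST list held 7.13 interactions per 1000 there (exact Poisson interval 5.43 to 9.19) and the VIP list 6.09 (4.37 to 8.26). The ratio of SST to VIP was 1.17, with a counting interval of 0.773 to 1.79 that includes 1. These intervals, like all below, are exact 95% intervals for counting error alone, and they treat interactions as independent although interactions share anchors. When anchors within 5 kb were merged, the counts were 53 in SST and 27 in VIP and the ratio was 1.61, on 23 SST and 15 VIP anchors. The Dlg2 block made up 13.2% of the 447 SST interactions on chromosome 7 and 9.62% of the 426 VIP interactions. The lists carry no read depth. A contact listed in 1 cell type may therefore have been missed in the other, and absence from a list does not by itself mean that a contact was missing.

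**Figure D1:**
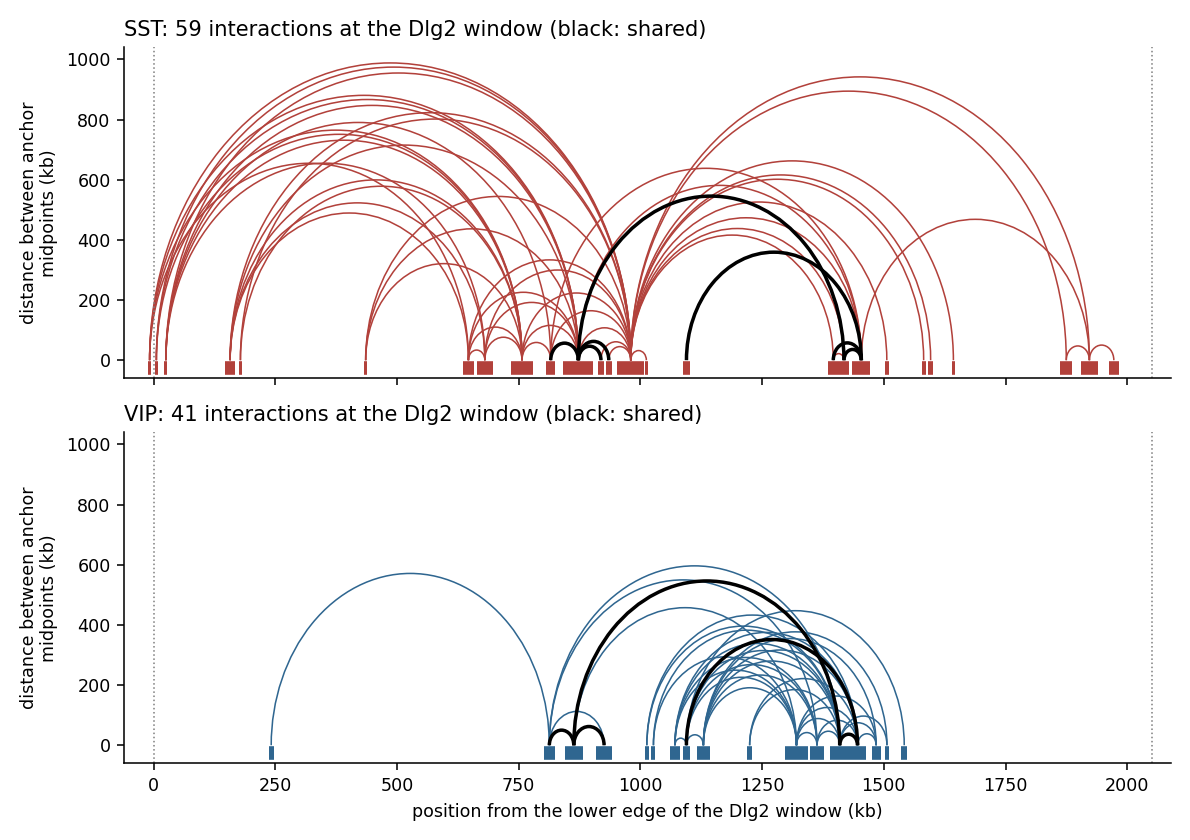
Interactions at the Dlg2 window in SST (above) and VIP (below). Each arc joins the midpoints of paired anchors and its height is their distance in kb, blocks under the axis are anchors, dotted lines are the edges of the window, and black arcs are shared (7 of 59 in SST, 5 of 41 in VIP). SST arcs reach 988.2 kb and fan out from anchors near the middle of the window, while VIP arcs reach 596.4 kb and gather to the right of the middle.

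The contacts stayed almost wholly inside the window in both cell types. In SST 55 of 59 interactions, and in VIP 41 of 41, had both anchors inside it. The 4 exceptions in SST all used the anchor at 97588991 to 97595088, which lies 4.91 kb below the lower edge. The first SST anchor inside that edge, at 97603226 to 97608525, lies 3.23 kb above it and had 3 interactions. Beyond these, the nearest SST anchor outside lay 784 kb below the window and 237 kb above it. In VIP the first anchor inside, at 97836714 to 97846789, lay 237 kb from the lower edge, and the last, at 99136195 to 99147609, lay 502 kb from the upper edge. No VIP anchor was listed for 6.04 Mb below the window or for 6.96 Mb above it, so the 41 of 41 in VIP restates that absence. Over those same flanks the SST list had 5 interactions below, 4 of them the Dlg2 contacts just named, and 10 above. With the window narrowed by 100 kb at each end, 78.0% of SST and 100% of VIP interactions had both anchors inside, so the SST share depends on the edges chosen. In each list the anchors of the window formed 1 connected network, of 26 anchors in SST and 17 in VIP.

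In the SST network an anchor in the middle of the window, called the hub here, had the most interactions. This anchor, at 98552543 to 98607954 and 55.4 kb wide, is named here by its midpoint, 98.58 Mb, as are the other anchors. It took part in 23 interactions (Poisson interval 14.6 to 34.5), which is 39.0% of the SST contacts of the window. It was linked to 23 of the 25 other SST anchors, all of which lay within 1 Mb of it. The anchors it was not linked to were those at 98.69 and 99.57 Mb. Of its partners, 13 lay on the lower side and 10 on the higher side, at distances of 32.0 to 988 kb with a median of 526 kb. The longest distance in the whole SST list was 999.7 kb, so the hub's reach on either side came close to the longest distance listed anywhere. The part of its width and central position in its number of interactions was not tested.

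No VIP anchor overlapped this SST hub. The VIP anchors nearest to it lay 10288 bp below and 1571 bp above, at 98508621 to 98542255 and at 98609525 to 98616938, and each had 2 interactions. The next SST anchor, at 98608501 to 98616015, begins within 5 kb of the end of the hub and does overlap the higher of these VIP anchors. Merging anchors within 5 kb joins it to the hub, so the lack of overlap depends on how the anchors were divided. A shared interaction needs overlap at both anchors, so none of the 23 SST interactions of the hub could be shared with VIP under that rule. When anchors within 10 kb of each other were matched, 3 of 23 were shared, beside 28.6% of the whole SST list. The deposited lists give no signal between anchors, so the acetylation of the stretch in VIP nuclei is not known from them.

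The next most connected SST anchors lay just below the hub. The anchor at 98441799 to 98503283 (98.47 Mb) was the widest of the window at 61.5 kb and had 14 interactions (7.65 to 23.5), 9 with lower and 5 with higher partners. The anchor at 98334913 to 98378758 (98.36 Mb) had 11 interactions (5.49 to 19.7), of which 8 ran to lower partners. The anchors at 98235688 to 98257783 (98.25 Mb) and 98264592 to 98296334 (98.28 Mb) had 6 each. On the other side of the hub, the anchor at 99035263 to 99072235 (99.05 Mb) had 7, of which 6 ran to lower partners. The hub and the 98.47 Mb anchor together touched 61.0% of the SST contacts, and with the 98.36 and 99.05 Mb anchors 84.7% (73.0 to 92.8%).

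A feature of the SST network was a set of small anchors at the lower end of the window that contacted the middle, with no listed contact among themselves. These 6 anchors, centred between 97.59 and 98.04 Mb, were 4.97 to 19.4 kb wide and took part in 22 interactions, 37.3% of the SST contacts. None of the 22 joined a pair of these anchors. Their partners were 6 anchors between 98.25 and 98.58 Mb. The 98.36 Mb anchor and the hub each received 6 of the 22 links, the 98.47 Mb anchor received 5, the 98.25 and 98.28 Mb anchors 2 each and the 98.42 Mb anchor 1. Distances of these links ran from 321 to 988.2 kb. The 3 longest SST interactions of the window belonged to this set, joining the hub to the anchors at 97.59, 97.61 and 97.63 Mb over 988.2, 974.4 and 954.8 kb. No VIP anchor overlapped any of these 6 SST anchors, where 36.9% of all SST anchors overlapped a VIP anchor. The VIP list had a single anchor in this part of the window, at 97.84 Mb, so the lack of overlap largely restates that absence.

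At the opposite end, 6 SST anchors between 99.18 and 99.57 Mb took part in 8 interactions, 5 of them with the hub. The anchor at 99.52 Mb had 4 interactions, and its contact with the hub spanned 942 kb. No VIP anchor overlapped these either, which restates that the VIP list had no anchor in the last 502 kb of the window. Between the hub and these anchors the SST list left 284 kb without an anchor, from 98700872 to 98984777, the longest such stretch of the window in SST.

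VIP contacts gathered in and around the stretch that held no SST anchor. The most connected VIP anchor, at 98990375 to 99028377 (99.01 Mb), was 38.0 kb wide and had 13 interactions (6.92 to 22.2), or 31.7% of the VIP contacts. It was linked to 13 of the 15 other VIP anchors within 1 Mb, the exceptions being those at 98.53 and 99.14 Mb. Of its partners, 10 lay on the lower side, and its distances ran from 36.7 to 596 kb with a median of 280 kb. Of its interactions, 2 of 13 were shared with SST when anchors had to overlap, beside 25.8% of the VIP list. With anchors matched within 10 kb, 8 of 13 were shared, beside 33.6%. The adjoining anchor at 99028922 to 99063159 (99.05 Mb) and the anchor at 98896607 to 98944517 (98.92 Mb) had 9 interactions each (4.12 to 17.1). The anchors at 98686984 to 98702052 (98.69 Mb), 98716150 to 98742564 (98.73 Mb) and 98948039 to 98977395 (98.96 Mb) had 7 each. Of these 6 anchors, those at 98.73, 98.92 and 98.96 Mb overlapped no SST anchor, and the last of them lay 7382 bp from the nearest. Over the whole VIP list, 43.5% of anchors overlapped an SST anchor.

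The leading anchors, picked in each list for their number of interactions, touched a large part of each network. The networks had 26 anchors in SST and 17 in VIP, so the same number of anchors is a larger portion of the VIP network. The 2 most connected touched 61.0% of the SST contacts (47.4 to 73.5%) and 51.2% of the VIP contacts (35.1 to 67.1%). The 4 most connected touched 84.7% in SST and 78.0% in VIP (62.4 to 89.4%), and the intervals overlap. Anchors with 10 or more interactions numbered 3 of 26 in SST and 1 of 17 in VIP, beside 4.43% and 4.27% of all anchors of the lists. Outside this block, 1 VIP anchor lay towards the lower end of the window, at 97.84 Mb, with a single contact of 571.2 kb to 98.41 Mb. VIP had no anchor for 554 kb between 97846789 and 98401092, where SST had 4 anchors with 3 to 11 interactions each, and none for the last 502 kb, where SST had 6.

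**Figure D2:**
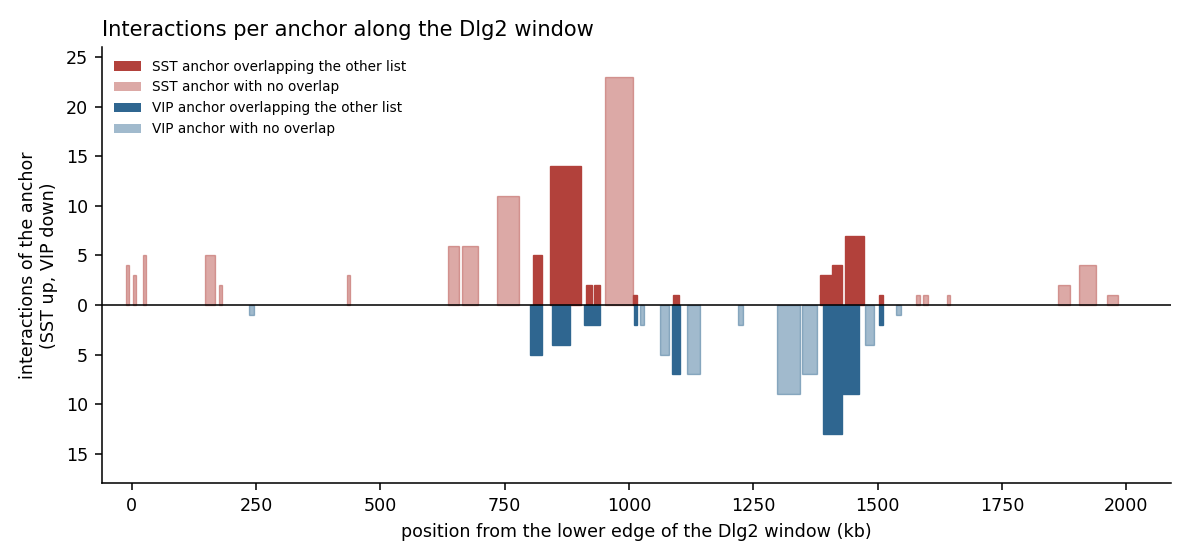
Number of interactions of each anchor along the window, in kb from its lower edge, with SST above the line and VIP below it. Each bar is an anchor drawn at its width (at least 6 kb), and pale bars are anchors that overlap none of the other list. The tallest SST bar, at 23, is pale and has no VIP bar under it, and the tallest VIP bar, at 13, lies under SST anchors with 3 and 4 interactions.

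The different positions were counted by cutting the window into 4 equal segments of 512.5 kb, numbered from the lower edge, with interactions assigned by the point midway between their anchors. In SST 16 of 59 interactions fell into segment 1, 24 into segment 2, 16 into segment 3 and 3 into segment 4. In VIP 0 of 41 interactions fell into segment 1, 4 into segment 2, 37 into segment 3 and 0 into segment 4. Segment 3 thus held 27.1% of SST contacts (16.4 to 40.3%) and 90.2% of VIP contacts (76.9 to 97.3%). Segment 1 held 27.1% of SST contacts, while 0 of 41 in VIP allows a share of up to 8.60%. Counted by anchor ends in place of midpoints, segment 2 held 59.3% of SST ends and 15.9% of VIP ends, and segment 3 held 13.6% of SST ends and 81.7% of VIP ends. Contacts with both ends in segment 3 numbered 4 in SST and 30 in VIP, and those with both ends in segment 2 numbered 18 in SST and 3 in VIP.

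The number of interactions spanning a position, from anchor midpoint to anchor midpoint, was counted every 10 kb. In SST it was highest, at 24, from 98.25 to 98.36 Mb, and in VIP it was highest, at 25, from 98.83 to 98.92 Mb. Of 205 positions, 8 were spanned by no SST interaction and 75 by no VIP interaction.

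**Figure D3:**
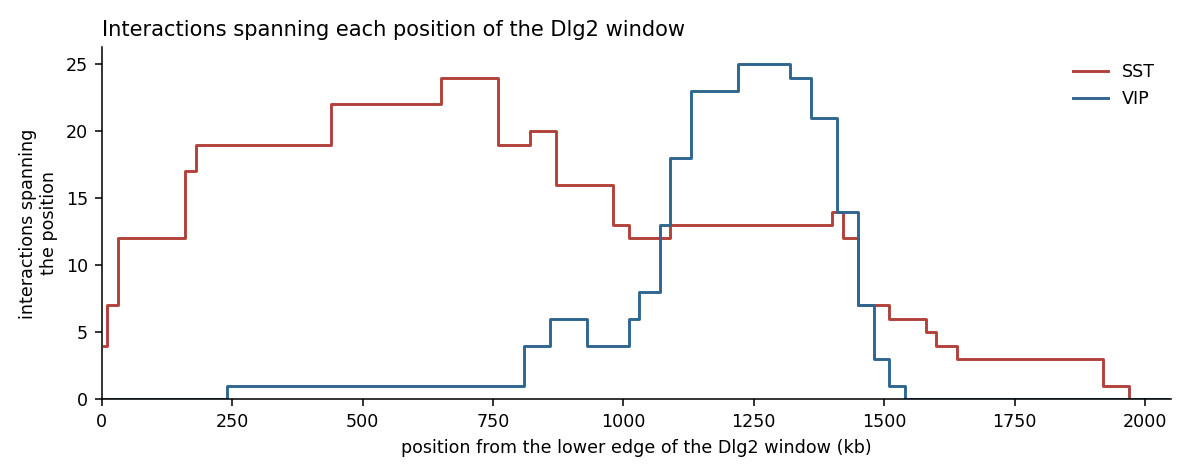
Number of interactions whose stretch between anchor midpoints covers each position, every 10 kb along the window, for SST and VIP. SST reaches 24 in the lower part of the window and VIP reaches 25 to the right of the middle, where SST stands between 12 and 14.

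Few of the Dlg2 contacts were listed in both cell types. An interaction was taken as shared when the lower anchor overlapped the lower one, and the higher anchor the higher one, of some interaction in the other cell type. This held for 7 of 59 SST interactions, 11.9% (4.91 to 22.9%), where it held for 21.4% of the whole SST list, and for 5 of 41 VIP interactions, 12.2% (4.08 to 26.2%), where it held for 25.8% of the whole VIP list. Both member intervals reach the share of their list. With anchors matched within 10 kb, 22.0% of the SST and 39.0% of the VIP contacts were shared, beside 28.6% and 33.6% of the lists, so the VIP share was then above that of its list, which lies within its interval of 24.2 to 55.5%. Among contacts of up to 200 kb, 5 of 19 in SST and 3 of 17 in VIP were shared, or 26.3% (9.1 to 51.2%) and 17.6% (3.8 to 43.4%), beside 24.3% and 29.0% in the lists. Among those above 200 kb, 2 of 40 in SST and 2 of 24 in VIP were shared, or 5.0% (0.6 to 16.9%) and 8.3% (with an interval that includes the share of the VIP list), beside 18.1% and 22.1% of such contacts in the SST and VIP lists. The SST interval above 200 kb lies under the share of its list, and in each cell type the intervals of the nearer and farther contacts overlap.

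The shared contacts formed a short chain in the middle of the window and a second one near 99 Mb, with a bridge between them. In the middle, the SST anchor at 98.47 Mb contacted those at 98.42, 98.52 and 98.54 Mb over 56.7, 46.5 and 62.5 kb. The matching VIP anchor at 98.46 Mb contacted those at 98.41 and 98.53 Mb over 50.2 and 62.3 kb, the last of which covers both the 98.52 and 98.54 Mb anchors of SST. Near 99 Mb, the SST anchors at 99.00 and 99.02 Mb each contacted the one at 99.05 Mb, and the VIP anchor at 99.01 Mb, which overlaps both, contacted its neighbour at 99.05 Mb over 36.7 kb. The bridge ran from 98.47 to 99.02 Mb in SST and from 98.46 to 99.01 Mb in VIP, over 546 kb in both. The remaining shared contact joined 98.69 to 99.05 Mb, over 359 kb in SST and 352 kb in VIP. The unequal counts of 7 and 5 come from anchors that 1 list divides and the other does not.

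**Figure D4:**
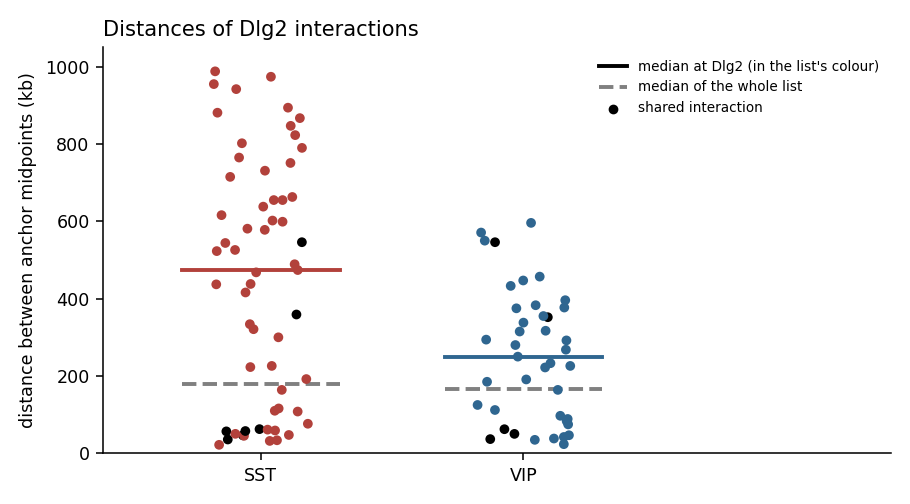
Distance between anchor midpoints in kb for each Dlg2 interaction, SST left and VIP right, with shared interactions in black. Solid lines are the medians at Dlg2 (474 kb in SST, 250 kb in VIP) and dashed grey lines those of the whole lists (178 kb in SST, 167 kb in VIP). No VIP point lies above 596.4 kb, and points are spread sideways for legibility alone.

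Anchors were shared at about the rate of the lists. Of the SST anchors 10 of 26, 38.5% (20.2 to 59.4%), overlapped a VIP anchor, beside 36.9% of all SST anchors. Of the VIP anchors 8 of 17, 47.1% (23.0 to 72.2%), overlapped an SST anchor, beside 43.5% of all VIP anchors. These form 8 common sites, and the number of interactions at a site often differed. The site at 98.47 Mb in SST and 98.46 Mb in VIP had 14 SST and 4 VIP interactions. The site at 98.69 Mb had 1 SST and 7 VIP interactions, and the site at 99.00 to 99.02 Mb in SST had 6 SST and 13 VIP interactions. The site at 98.42 Mb in SST had 5 in each list, the site at 99.05 Mb had 7 in SST and 9 in VIP, and that at 98.52 to 98.54 Mb had 4 in SST and 2 in VIP. At 98.61 and at 99.11 Mb there were 1 SST and 2 VIP interactions each. In all, 5 of the 8 sites had more VIP interactions, 2 had more SST interactions and 1 had equal numbers. Of the 5, those at 98.61, 99.05 and 99.11 Mb differed little.

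Most unshared contacts used an anchor listed in 1 cell type, at Dlg2 as over the lists. In SST, 16 of 26 anchors overlapped no VIP anchor, and 49 of 59 interactions touched at least 1 of them. Of those, 29 joined a pair of such anchors. In VIP, 9 of 17 anchors overlapped no SST anchor, and 30 of 41 interactions touched at least 1, of which 8 joined a pair. Of the unshared contacts alone, those touching such an anchor made up 94.2% in SST (84.1 to 98.8%), beside 89.6% over the SST list, and 83.3% in VIP (67.2 to 93.6%), beside 88.2% over the VIP list, and both intervals include the value of the list. Unshared contacts that joined a pair of such anchors made up 55.8% in SST (41.3 to 69.5%), beside 51.1% over the list, and 22.2% in VIP (10.1 to 39.2%), beside 45.8%, and here the VIP interval lies under the value of its list. A smaller group was unmatched although both anchors were present in the other list. Of SST contacts with both anchors overlapping VIP anchors, 7 of 10 were linked in VIP, beside 72.5% over the list, and from the VIP side 5 of 11 were linked in SST, beside 74.8%. The VIP share, 45.5%, had an interval of 16.7 to 76.6%, which includes the share of the list. The 3 SST contacts without a VIP counterpart were 98.42 to 99.05 Mb, 98.47 to 99.05 Mb and 99.00 to 99.02 Mb, and both anchors of the last of these overlap the same VIP anchor, so that no VIP link could match it. The 6 VIP contacts without an SST counterpart joined 98.41 Mb to 98.53 and 99.01 Mb, 98.61 Mb to 99.01 and 99.05 Mb, 98.69 to 99.01 Mb, and 99.01 to 99.11 Mb.

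SST contacts at Dlg2 were long beside the rest of the SST list, and more of them than of the VIP contacts exceeded 400 kb. Their median distance was 474 kb (order-statistic interval 300 to 599 kb), where that of the SST list was 178 kb (168 to 188 kb). In VIP the median was 250 kb (125 to 338 kb), where that of the VIP list was 167 kb (157 to 177 kb). The SST and VIP intervals at Dlg2 overlap between 300 and 338 kb. Contacts above 400 kb made up 34 of 59 in SST, 57.6% (44.1 to 70.4%), beside 24.5% of the list. In VIP they made up 7 of 41, 17.1% (7.15 to 32.1%), beside 21.1% of the list. These member intervals do not overlap, but they cover counting error alone and treat contacts that share anchors as independent. Most SST contacts above 400 kb used the hub or the 6 lowest anchors, whose 22 links ran from 321 to 988.2 kb. No spread between replicates exists, so the intervals do not measure a difference between the cell types. Contacts of up to 100 kb made up 23.7% (13.6 to 36.6%) in SST and 29.3% (16.1 to 45.5%) in VIP, beside 38.7% and 39.2%. The shortest SST contacts of the window joined 99.00 to 99.02 Mb (21.9 kb), 98.58 to 98.61 Mb (32.0 kb) and 98.25 to 98.28 Mb (33.7 kb). The shortest VIP contacts joined 98.67 to 98.69 Mb (23.6 kb), 98.69 to 98.73 Mb (34.8 kb) and 99.01 to 99.05 Mb (36.7 kb). The longest VIP contacts all used the anchor at 98.41 Mb, which met 99.01 Mb over 596.4 kb, 97.84 Mb over 571.2 kb and 98.96 Mb over 549.8 kb. Without the SST hub the SST median was 453 kb, and without the VIP anchor at 99.01 Mb the VIP median was 242 kb.

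Interactions per anchor at Dlg2 were above those of the lists, in a window chosen on its contacts, so this describes the choice and tests nothing. The same number was not computed for other windows rich in contacts. Anchor widths could not be set apart from those of the lists. The median width was 15.5 kb in SST (8.29 to 22.8 kb) beside 11.8 kb over the list, and 19.0 kb in VIP (11.3 to 33.6 kb) beside 12.4 kb, and both member intervals include the value of the list. Anchors with 3 or more interactions made up 57.7% in SST (36.9 to 76.6%) and 58.8% in VIP (32.9 to 81.6%), beside 34.4% and 33.5% of all anchors, and the VIP interval includes the value of its list. The number of interactions divided by that of distinct anchors was 2.27 in SST and 2.41 in VIP, beside 1.42 and 1.39 over the lists. As each interaction counts at both of its anchors, this ratio is lower than the mean number of interactions of an anchor. The median anchor had 3 interactions in SST and 4 in VIP, beside 2 in each whole list. Of the pairs of Dlg2 anchors within 1 Mb of each other, 24.2% were linked in SST and 31.8% in VIP, beside 20.5% and 22.1% over the lists. Wide anchors can hold more contact ends, and the part of width in the number of interactions was not tested.

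Set beside the rest of the genome, Dlg2 was among the richest windows in both lists at once. The genome was cut into windows of the same 2050 kb from the start of each chromosome, interactions were counted by the rule used for Dlg2, and windows that meet the Dlg2 window were left out. Of 820 such windows with at least 1 interaction, the median held 5 SST and 4 VIP interactions, 23 (2.80%) held 59 or more SST interactions, 39 (4.76%) held 41 or more VIP interactions and 11 (1.34%) did both. As the window was proposed for its contacts, these ranks describe it and test nothing.

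Among windows that were rich in both cell types, Dlg2 shared fewer of its contacts than 13 of 14 others. There were 14 other windows with at least 6.09 interactions per 1000 in each list. Their median share of shared interactions was 39.6% in SST, with a range of 0 to 63.6%, and 35.4% in VIP, with a range of 0 to 79.1%, while Dlg2 stood at 11.9% and 12.2%. A single window, on chromosome 8 starting at 120950001, was lower in both, with 0 shared of 73 SST and 62 VIP interactions. With anchors matched within 10 kb, 1 of the 14 windows again lay at or below Dlg2 in SST (22.0%, against a median of 55.0%) and 1 in VIP (39.0%, against 48.2%). Among interactions of up to 200 kb, 4 of the 14 lay at or below Dlg2 in SST. The rank leaves out the counting intervals of Dlg2, 4.91 to 22.9% in SST and 4.08 to 26.2% in VIP. The window on chromosome 11 starting at 116850001, with 13 of 70 SST and 11 of 46 VIP interactions shared, lay within both. As above, the rank describes a window chosen on its contacts and tests nothing.

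**Figure D5:**
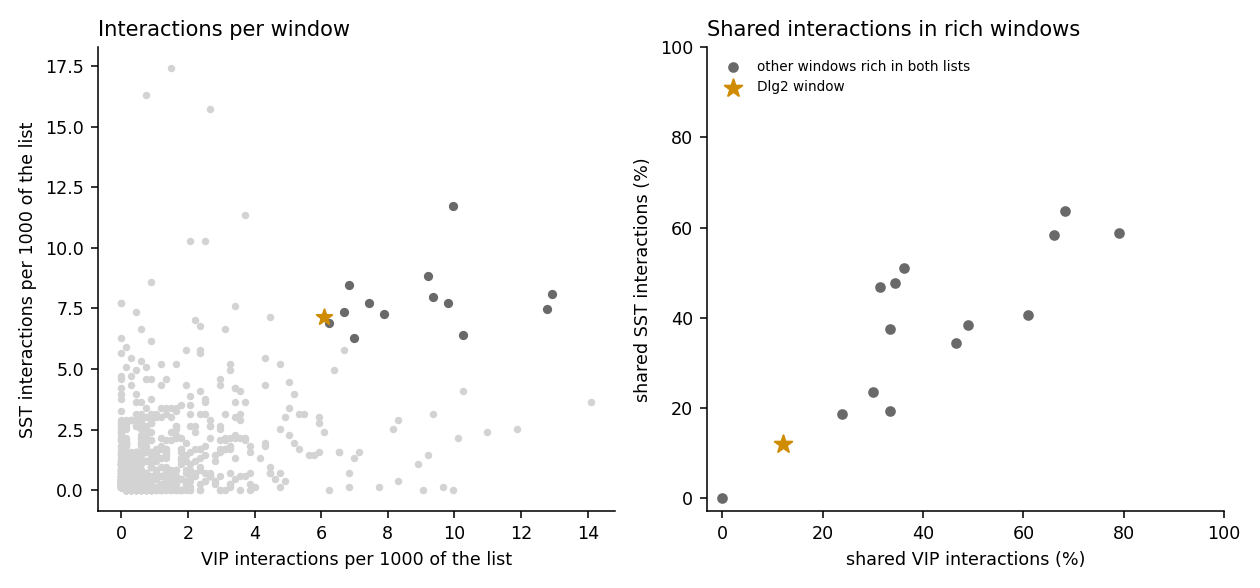
Left, interactions per 1000 of the list in windows of 2050 kb, SST on the vertical and VIP on the horizontal axis, with the windows rich in both lists in dark grey and the Dlg2 window as a star (7.13 and 6.09, which hides a window on chromosome 12 with the same counts). Right, the share of SST and VIP interactions that were shared in those windows, where the star lies at 11.9% and 12.2% and 13 of the 14 other windows lie above it in both.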

How the data were processed

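H3K27ac HiChIP was made from INTACT nuclei crosslinked in formaldehyde, cut with MboI and prepared with Tn5, per the labels' protocols. HiC-Pro and the build mm9 are named, per the submitters' processing notes. The deposited lists hold 6 columns, the chromosome, start and end of both anchors, and no measured value beside them. The sources used here give no caller, threshold, anchor set, pooling of replicates or depth. Starts may count from 0 or 1.

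From these, overlaps of at least 1 bp, distances between anchor midpoints, interactions per anchor and shares were computed in Python 3.11.15 with numpy 2.4.6, scipy 1.17.1 and matplotlib 3.10.9. The overlap step was tested on simulated data. With 1 list per cell type, no replicate spread and no p-value exist. Counts have exact Poisson, shares Clopper-Pearson and medians order-statistic intervals. Named regions were, per list, the 5 anchors with the most interactions (ties included), the 3 longest and 3 shortest interactions and the shared ones. The window, rules and comparisons were chosen with earlier results of these data known, and regions outside this rule after their values were seen. No test was run across features.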

Additional observations from a re-analysis of the deposited data

How the results depend on the processing

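Limited to contacts of up to 200 kb, the Dlg2 window held 19 SST and 17 VIP interactions, with a ratio per 1000 of 0.926, an SST median of 57.6 kb and a VIP median of 74.8 kb, lower by construction, and 26.3% of the SST contacts shared. With anchors within 10 kb, 39.0% of VIP contacts were shared. Merging anchors within 5 kb left 27 VIP interactions. Leaving out the most connected anchor left 36 SST interactions, by construction. With identical anchors, 0% of SST and 0% of VIP interactions and 0% of SST and 0% of VIP anchors were shared. The share of SST interactions with both anchors inside was 100% with the window widened by 100 kb at each end and 78.0% with it narrowed. Placing each anchor by its own midpoint gave 15.3%, 59.3% and 13.6% of SST ends in segments 1, 2 and 3. Of 63 values recomputed, 46 stayed within 1.5 times the count or within the interval of the value reported. The ratio of SST to VIP, whose interval includes 1, lay on either side of 1. Beyond the changes by construction, causes were not tested. The 10 kb, 50% and identical rules for anchors, the limit above 200 kb and the removal of the most connected anchor were added after seeing the data. No paired analysis was possible because the lists give no values by replicate, nor could replicates be left out. Unknown depth limits every statement on a contact listed in 1 cell type.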
